A study of Mus musculus with 4 samples.

Results

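Among the live CD45-positive cells of B16F10-OVA melanomas, 86 of 11224 cells formed a small population of macrophages with transcripts of Lyve1 and Folr2. The cells were chosen by their own transcripts. A cell was a member when it had at least 5 unique molecular identifiers (UMIs, counted transcript molecules) of Lyz2, at least 6 of C1qa, C1qb and C1qc together, at least 2 of Folr2 and at least 1 of Lyve1 or Cd209f. It also had at most 9 UMIs of Cxcl9 and Cxcl10, at most 2 of Arg1, none of Xcr1, Clec9a and Ccr7, and at most 1 of the CD3 genes Cd3d, Cd3e and Cd3g. Of the members, 47 came from miR-155 TCKO hosts at day 12 and 39 from wild-type (WT) hosts at day 12, while the TCKO and WT libraries of day 9 held 0.

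B16F10-OVA is a melanoma line from C57BL/6 mice that carries the model antigen ovalbumin. Each host had received 1000000 cells under the skin, and the hosts were miR-155 TCKO mice, which lack miR-155 in T cells, or WT C57BL/6 mice. The driver of the T cell deletion and the age of the mice are not given in the labels. Tumours were taken at day 12 or day 9, pooled within each group of more than 4 mice, digested with Accumax and sorted for CD45-positive, DAPI-negative cells. Each genotype and day had 1 library of droplet 3' RNA sequencing (10x Genomics), so no group has replicates, no p-value is given, and intervals cover counting error alone. Equal numbers of sorted cells were processed per the labels, and a share of cells depends on that sort.

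Lyve1 encodes a hyaluronan receptor named for lymphatic endothelium, which a group of tissue macrophages near blood vessels also carries. Folr2 encodes folate receptor beta, a surface receptor of resident macrophages in many tissues. Cd209f and its neighbours Cd209d and Cd209g encode C-type lectins related to the human receptor DC-SIGN. Resident macrophages of this kind are known for taking up debris and for low MHC class II, whereas macrophages that recently arose from monocytes carry Ccr2 and Ly6c2.

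In GENCODE vM21 (GRCm38, mm10), Lyve1 lies at chr7:110850607-110863239 on the minus strand and Folr2 at chr7:101839988-101857194 on the minus strand. Cd209f lies at chr8:4102787-4105835 (minus strand) and Cd209g at chr8:4134098-4137707 (plus strand), with Cd209d at chr8:3871824-3878555 (minus strand). The promoter windows of Cd209f and Cd209g are printed because these genes were found in the same members. Each window runs from 250 bases before to 50 bases after the gene start of RefSeq for GRCm38.p6, which differs from the GENCODE start. The windows lie at chr8:4105715-4106014 (Cd209f, minus strand) and chr8:4134486-4134785 (Cd209g, plus strand). The Cd209g window lies wholly inside the GENCODE span of Cd209g given above, not before its start. Capitals mark the longest run of identical bases in both windows.
Cd209f promoter: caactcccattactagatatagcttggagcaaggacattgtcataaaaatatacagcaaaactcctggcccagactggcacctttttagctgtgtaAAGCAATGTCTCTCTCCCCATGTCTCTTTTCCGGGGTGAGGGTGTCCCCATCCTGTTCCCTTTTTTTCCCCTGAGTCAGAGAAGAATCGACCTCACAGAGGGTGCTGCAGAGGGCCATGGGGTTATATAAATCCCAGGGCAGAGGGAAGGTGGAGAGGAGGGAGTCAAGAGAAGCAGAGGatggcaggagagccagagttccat
Cd209g promoter: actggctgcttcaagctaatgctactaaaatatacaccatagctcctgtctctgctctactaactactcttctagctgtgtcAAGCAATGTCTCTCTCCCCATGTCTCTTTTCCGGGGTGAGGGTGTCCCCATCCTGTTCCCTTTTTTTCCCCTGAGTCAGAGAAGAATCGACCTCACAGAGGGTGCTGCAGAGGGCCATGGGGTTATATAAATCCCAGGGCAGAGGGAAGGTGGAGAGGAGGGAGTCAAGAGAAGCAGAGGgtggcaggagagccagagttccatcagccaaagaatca
The shared run is 180 bases long, covers positions 97 to 276 of the Cd209f window and 83 to 262 of the Cd209g window, and was found in 2 of 32851 promoter windows, these genes' own. Cd209d, whose window lies at chr8:3878450-3878749 on the minus strand, shared at most 8 identical bases in a row with Cd209f and 10 with Cd209g. At the transcript ends that 3' counting reads, the genes differed: the last 500 bases of the Cd209 family transcripts had no stretch of 50 bases in common between genes.

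The microRNA that the hosts' T cells lack is printed because it sets the genotypes apart, with its seed, bases 2 to 8, in capitals (RefSeq, GRCm38.p6, chr16:84714143-84714165, plus strand).
mmu-miR-155-5p: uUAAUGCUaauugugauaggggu
Its host transcript Mir155hg was counted in T cells, here cells with at least 3 UMIs of the CD3 genes, as a check of the labels. Mir155hg had 0 UMIs in 253 T cells of the TCKO library at day 12, where 3 UMIs would be 2.32 UMIs per 1000000 UMIs (CPM), against 21 UMIs (7.62 CPM) in 561 T cells of the WT library. At day 9 it had 2 UMIs (0.434 CPM) in TCKO T cells, against 95 UMIs (7.67 CPM) in WT T cells. The Lyve1 Folr2 macrophages themselves had 0 Mir155hg UMIs in both day 12 libraries, where 3 UMIs would be 3.94 CPM in TCKO members and 6.49 CPM in WT members.

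The libraries held 2059 (TCKO day 12), 3684 (WT day 12), 3749 (TCKO day 9) and 1778 (WT day 9) cell barcodes with 18783490 to 33902064 UMIs in all. Cells with at least 200 genes and at most 10% mitochondrial UMIs were kept, with medians of 7392 to 9658 UMIs per cell. The day 12 libraries shared 15 barcodes, among them those of 3 TCKO members and of 0 WT members, and other pairs of libraries shared 4 to 16.

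Lyve1 Folr2 macrophages were found at day 12 in both genotypes and made up a larger share of the cells in the TCKO library. They were 2.31% of 2036 kept cells in the TCKO library (95% Clopper-Pearson interval 1.70 to 3.06%), against 1.06% of 3673 in the WT library (0.756 to 1.45%), a ratio of 2.17 (exact conditional interval 1.39 to 3.41). Of the C1q macrophages, the cells that met the Lyz2 and C1q minimums and the limits on Xcr1, Clec9a, Ccr7 and CD3 genes, they were 10.4% of 452 TCKO cells (7.74 to 13.6%), against 3.77% of 1034 WT cells (2.70 to 5.12%). This ratio was 2.76 (1.76 to 4.33). With 1 pool of tumours per group, these intervals hold no spread between mice, and a share also moves with the numbers of the other cells in its library.

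Since the rule also limits Cxcl9, Cxcl10 and Arg1, the shares were taken once more among the C1q macrophages under those limits. There the members were 15.1% of 312 TCKO cells (11.3 to 19.5%), against 4.97% of 784 WT cells (3.56 to 6.74%), a ratio of 3.03 (1.94 to 4.75). The ratio was thus as large among the macrophages that the limits let through. With every cell thinned to 5000 UMIs, which left out 552 TCKO and 1164 WT cells that were shallower, 41 members of 1484 TCKO cells (2.76%) stood against 29 of 2509 WT cells (1.16%).

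At day 9 the limit that a count of 0 allows, taken as 3 cells, was 0.0803% of 3738 TCKO cells and 0.169% of 1777 WT cells. Among C1q macrophages it was 0.752% of 399 TCKO cells and 3% of 100 WT cells, so the WT library of day 9 could hold a share not far below the 3.77% of the WT library at day 12. Day and preparation cannot be told apart. Lyve1 was counted at day 9 in 1 TCKO cell, with 17 UMIs, and in 2 WT cells, with 3 UMIs in all and none of them in a C1q macrophage. Cd209f had 0 UMIs in both day 9 libraries.

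**Figure D1:**
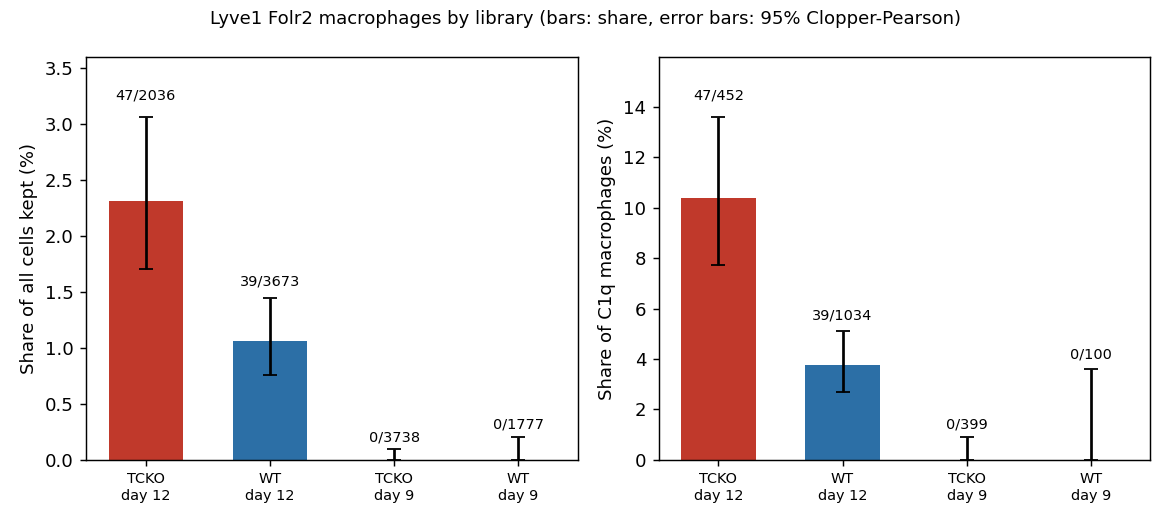
Share of Lyve1 Folr2 macrophages among all kept cells and among C1q macrophages (vertical axes, percent) in the TCKO day 12, WT day 12, TCKO day 9 and WT day 9 libraries, with 95% Clopper-Pearson intervals as error bars. The TCKO bar at day 12 stands at 2.31% and 10.4%, the WT bar at 1.06% and 3.77%, and both day 9 libraries are at 0.

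Comparison sets, Folr2 only and Folr2 low, were taken from the same libraries by the same limits. Folr2 only cells met every condition but had 0 UMIs of Lyve1 and Cd209f, and Folr2 low cells had at most 1 Folr2 UMI and 0 of Lyve1 and Cd209f. Folr2 only cells were 14.8% of the C1q macrophages in the TCKO library and 14.4% in the WT library at day 12, a difference within counting error (intervals 11.7 to 18.4% and 12.3 to 16.7%). Folr2 low cells were 43.4% (38.7 to 48.1%) in TCKO and 57.4% (54.3 to 60.4%) in WT. At day 9 the Folr2 only set held 6 TCKO and 3 WT cells, and the Folr2 low set held 248 TCKO and 65 WT cells.

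The genes that chose the members are described here with no test. Folr2 had 1292 UMIs in the TCKO members, with a median of 24 per cell and a range of 2 to 77, and 616 UMIs in the WT members, with a median of 14 and a range of 2 to 41. Lyve1 had 616 UMIs in TCKO members (median 11, range 0 to 51) and 349 in WT members (median 8, range 1 to 29). Cd209f was concentrated in fewer cells, with 624 UMIs in 21 TCKO members and at most 165 in 1 cell, and 212 UMIs in 9 WT members and at most 75 in 1 cell. Of the TCKO members, 26 had Lyve1 alone, 4 had Cd209f alone and 17 had both, and of the WT members 30 had Lyve1 alone, none had Cd209f alone and 9 had both.

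Few cells lay at the Folr2 limit. Exactly 2 Folr2 UMIs were found in 1 TCKO and 1 WT member, and exactly 1 UMI of Lyve1 or Cd209f in 7 TCKO and 8 WT members. Just outside, 2 TCKO and 3 WT cells had 0 Folr2 UMIs and none had 1, while 2 TCKO and 3 WT cells had more than 9 UMIs of Cxcl9 and Cxcl10, and 3 TCKO cells and no WT cell had more than 2 of Arg1. Free RNA of these genes was low: T cells with a Lyve1 UMI were 0.395% of the TCKO and 0% of the WT T cells, those with a Folr2 UMI 1.58% and 1.25%, and those with a Cd209f UMI 0% and 0.178%. The T cells had medians of 3899 UMIs in TCKO and 3679 in WT, and the members 15855 in TCKO and 12156 in WT.

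The members held most of the Lyve1 and Cd209f transcripts of their libraries, shares partly set by the rule, which asked for Lyve1 or Cd209f. They carried 85.8% of the Lyve1 UMIs of the TCKO library and 79.0% of those of the WT library, and 91.6% and 80.6% of the Cd209f UMIs. They also held 94.3% of the Cd209g UMIs in TCKO and 100% in WT, a gene that the rule did not use. For Cd163, the receptor that takes up haemoglobin bound to haptoglobin, the members held 73.5% in TCKO and 54.2% in WT, and for Fcna, the soluble lectin ficolin A, 81.6% and 72.9%. Folr2 was wider spread, with 52.8% in TCKO and 30.2% in WT, and Cd209d lay mostly outside the members, with 10.9% in TCKO and 1.83% in WT.

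**Figure D2:**
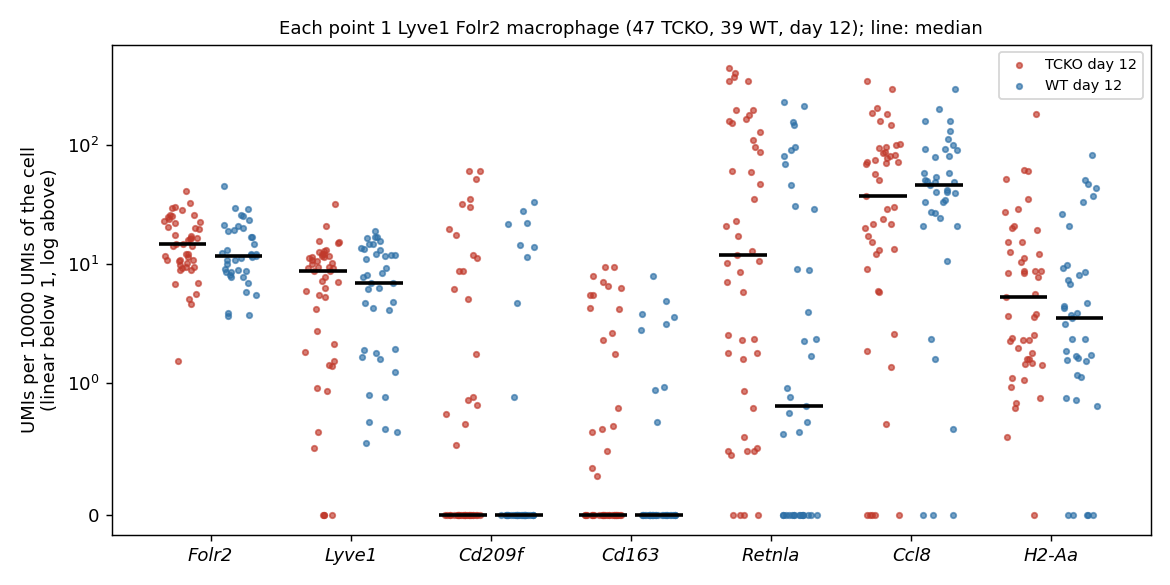
UMIs per 10000 UMIs of the cell (vertical axis, linear below 1 and log above) of named genes in each Lyve1 Folr2 macrophage at day 12, with TCKO members left of WT members and a bar at each median. Retnla spreads from 0 to 448 per 10000 in TCKO members, with a median of 12.0, and from 0 to 228 in WT members, with a median of 0.822.

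Against the Folr2 low macrophages of the same library, the members were higher in genes of resident macrophages and lower in genes of MHC class II and of monocytes. The members were chosen by transcripts of these same cells, so what follows is a description with no test. Of 7373 genes with at least 20 UMIs over the pair in both day 12 libraries, 1049 (14.2%) were at least 1.5-fold higher in the members in both libraries, and 586 (7.95%) at least 1.5-fold lower. The median log2 ratio of all these genes was 0.10 in TCKO and 0.09 in WT, and with each library's ratios centred on its median 854 were higher and 729 lower. Against Folr2 only cells, 414 of 5952 genes (6.96%) were higher and 278 (4.67%) lower, with a median of 0.03 in both libraries. The members had more UMIs per cell than Folr2 only cells (medians 12187 in TCKO and 10969 in WT) and Folr2 low cells (10133.5 and 8536), and a higher mitochondrial share (2.63% in TCKO and 3.39% in WT, against 1.98% and 1.85% in Folr2 only cells and 1.85% and 1.82% in Folr2 low cells). The part of depth and of the mitochondrial share in these differences was not tested.

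Of 22 listed resident macrophage genes outside the rule with enough UMIs, 21 were higher in the members than in Folr2 low cells in both libraries and 1, Cd209a, was lower, with a median log2 ratio of 3.70 in TCKO and 3.70 in WT. Cd209g stood at 303 CPM in TCKO members and 129.8 CPM in WT members, against 0 UMIs in the Folr2 only cells of both libraries and 0.476 CPM and 0 in the Folr2 low cells. Cd163 had 175 CPM (exact Poisson interval 146 to 207) in TCKO members and 84.4 CPM (60.0 to 115) in WT members, against 7.12 and 6.66 CPM in Folr2 only cells and 0.953 and 0.765 CPM in Folr2 low cells. In Folr2 low cells these genes were thus at or near 0 in both libraries. Fcna had 379.5 CPM in TCKO and 203 CPM in WT members, against 15.4 and 7.87 CPM in Folr2 only and 2.38 and 0.956 CPM in Folr2 low cells.

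A second group of genes was graded, with Folr2 only cells between the members and the Folr2 low cells. Cbr2, a carbonyl reductase, had 1405 CPM in TCKO and 967 CPM in WT members, against 351 and 296 CPM in Folr2 only and 35.7 and 29.8 CPM in Folr2 low cells. Pf4, the chemokine platelet factor 4, had 3752 CPM in TCKO and 2393 CPM in WT members, against 1620.0 and 984 CPM in Folr2 only and 286 and 162 CPM in Folr2 low cells. Neither the 4 platelet markers (Itga2b, Gp9, Gp1bb, Ppbp) nor the 4 mast cell markers had a UMI in the members. Ccl8, a chemokine that attracts monocytes and T cells, had 7053 CPM in TCKO and 5936 CPM in WT members, against 3792 and 1647 CPM in Folr2 only and 544 and 240.3 CPM in Folr2 low cells. F13a1, the A subunit of coagulation factor XIII, and Fcgrt, the neonatal Fc receptor, showed the same order, with 1292 and 1170.1 CPM in TCKO members, 978 and 948 CPM in WT members, and at most 164 CPM in Folr2 low cells. Mrc1, the mannose receptor CD206, was less steep, with 839 CPM in TCKO and 653 CPM in WT members, against 458 and 359 CPM in Folr2 only and 313 and 207 CPM in Folr2 low cells. Against Folr2 only cells, 19 of 21 resident genes were higher in the members and none lower, with medians of 2.00 in TCKO and 1.93 in WT.

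Genes for the uptake of dying cells did not move as one. Gas6, which bridges dying cells to the TAM receptors, had 691 CPM in TCKO members and 381 CPM in WT members, against 136 and 77.5 CPM in Folr2 only and 13.8 and 5.74 CPM in Folr2 low cells. Of its receptors, Mertk had 39.4 CPM in TCKO and 38.95 CPM in WT members, against 29.1 and 17.6 CPM in Folr2 low cells. Axl was lower, with 5.25 CPM (4 UMIs) in TCKO and 8.66 CPM (4 UMIs) in WT members, against 70.5 and 41.5 CPM in Folr2 low cells. Stab1, the scavenger receptor stabilin-1, had 264 CPM in TCKO and 167 CPM in WT members, against 37.6 and 27.1 CPM in Folr2 low cells. Timd4, a phosphatidylserine receptor of long-lived resident macrophages, was rare, with 3 UMIs in 2 TCKO members and 10 UMIs in 3 WT members. Over the whole list of scavenging and dead cell uptake, 6 of 16 genes were higher and 3 lower.

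Among secreted factors, Igf1, insulin-like growth factor 1, had 201 CPM in TCKO and 216 CPM in WT members, against 33.8 and 18.9 CPM in Folr2 low cells. Pdgfc, a platelet-derived growth factor, had 52.5 CPM in TCKO and 67.1 CPM in WT members, against 2.38 and 1.91 CPM. Timp2, an inhibitor of matrix metalloproteinases, had 1628 CPM in TCKO and 1629 CPM in WT members, against 178 and 121 CPM. These growth and matrix genes were higher in the members, while Fn1, fibronectin, was lower, with 53.8 CPM in TCKO and 8.66 CPM in WT members, against 716 and 276 CPM in Folr2 low cells. Tslp, an epithelial-type cytokine that acts on dendritic cells, had 77.5 CPM in TCKO members (59 UMIs in 22 cells) and 36.8 CPM in WT members (17 UMIs in 10 cells), against 0.476 CPM and 0 in Folr2 low cells. The WT ratio for Tslp was at least 64.1-fold, taking 3 UMIs as the floor for the Folr2 low cells. Of 14 growth and matrix genes, 5 were higher and 6 lower.

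The 20 largest ratios over Folr2 low cells, ranked by the smaller of both libraries' ratios, included further enzymes and receptors. Ltc4s, the enzyme that makes leukotriene C4, had 453 CPM in TCKO and 355 CPM in WT members, against 17.1 and 11.5 CPM in Folr2 low cells. Ednrb, the endothelin receptor type B, had 425 CPM in TCKO and 264 CPM in WT members, against 9.53 and 4.40 CPM. Cp, ceruloplasmin, which oxidises iron for export, had 73.5 CPM in TCKO and 126 CPM in WT members, against 1.91 and 1.15 CPM. The other genes so chosen were Rcn3, Sult1a1, Fxyd2, Npl, Gm16104, Saa3, Igfbp4, Cela1 and Serpinb6a, whose members' levels lay between 30.2 and 494 CPM in TCKO and between 36.8 and 357 CPM in WT. Of 15 iron and haem genes 7 were higher and none lower, among them Blvrb, biliverdin reductase B, with 722 CPM in TCKO and 775 CPM in WT members, against 154 and 327 CPM in Folr2 low cells.

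Complement genes were split. C4b, complement component C4, had 221 CPM in TCKO and 123 CPM in WT members, against 6.67 and 21.2 CPM in Folr2 low cells. Of 10 complement genes 3 were higher and 3 lower. In lipid handling, Abca1, a cholesterol exporter, had 94.6 CPM in TCKO and 113 CPM in WT members, against 19.5 and 14.1 CPM in Folr2 low cells, and Trem2, a lipid-sensing receptor, had 465 CPM in TCKO and 288 CPM in WT members, against 152 and 92.3 CPM. Spp1, osteopontin, was lower in the members, with 56.5 CPM in TCKO and 36.8 CPM in WT, against 200.1 and 293 CPM. Over the lipid and lysosome list 10 of 24 genes were higher and 5 lower.

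MHC class II was low in the members. All 9 class II genes with enough UMIs were lower than in Folr2 low cells in both libraries, with median log2 ratios of -2.67 in TCKO and -2.46 in WT, and all 7 counted against Folr2 only cells were lower too. H2-Aa, a class II alpha chain, had 1325 CPM in TCKO and 1188 CPM in WT members, against 5451 and 5173 CPM in Folr2 only and 7975 and 7745 CPM in Folr2 low cells. Cd74, the invariant chain, had 4598 CPM in TCKO and 4169.8 CPM in WT members, against 23697 and 21416 CPM in Folr2 low cells. Summed over the class II genes, the median member had 42.0 per 10000 UMIs in TCKO (range 2.37 to 992) and 19.3 in WT (4.52 to 505), against 298 and 304 in Folr2 only and 454 and 418 in Folr2 low cells. In each library 1 member lay above the median of the Folr2 low cells.

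Monocyte genes followed the same direction, with all 13 counted lower in the members (median log2 ratios -1.83 in TCKO and -1.78 in WT). Ccr2, the chemokine receptor of monocytes, had 229.8 CPM in TCKO and 219 CPM in WT members, against 575 and 752 CPM in Folr2 low cells. Ly6c2, a surface protein of classical monocytes, had 149.7 CPM in TCKO and 509 CPM in WT members, against 1379 and 3040.4 CPM. Vcan, the proteoglycan versican, had 3 UMIs in TCKO members and 0 in WT members, against 106 and 61.2 CPM in Folr2 low cells. The inflammatory cytokine gene Il1b had 4 UMIs (5.25 CPM) in TCKO and 2 UMIs (4.33 CPM) in WT members, against 170.1 and 91.2 CPM. The most lowered genes by the same rule were AA467197, Vcan, Ltb4r1, F10, Bcl2a1a, Tnip3, Clec4e, Gm9733, Il1b and Runx3. Bcl2a1a has near-identical copies, so its counts are uncertain.

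Type I interferon genes were more often higher than lower against Folr2 low cells, with 12 of 25 higher and 2 lower (median log2 0.77 in TCKO and 0.65 in WT). Ifit1, an antiviral RNA-binding protein, had 151 CPM in TCKO and 245 CPM in WT members, against 78.6 and 100.2 CPM, and Ifi44 had 57.8 CPM in TCKO and 58.4 CPM in WT members, against 7.15 and 11.9 CPM. Isg20 and Ifi205 were the lower ones. Of 29 interferon-gamma response genes 3 were higher and 4 lower, beside 14.2% higher and 7.95% lower of all 7373 genes. Those shares also apply to the other lists, and no list was tested against them. The members and the Folr2 low cells were both under the limits on Cxcl9, Cxcl10 and Arg1. None of 20 MHC class I genes passed 1.5-fold in both libraries. Of 19 immediate early and stress genes 7 were lower and none higher. Among transcription factors 3 of 18 were higher, namely Maf, Mitf and Tfec, and 4 lower, namely Batf3, Bhlhe40, Id2 and Pparg. Of the other lists, chemokines were higher in 3 of 13 genes and lower in 2, alternative activation genes higher in 7 of 16 and lower in 6, Fc receptors higher in 1 of 6, inflammatory genes lower in 1 of 12 and cell cycle genes higher in 3 of 24. Maf, a factor of macrophage identity, had 687 CPM in TCKO and 775 CPM in WT members, against 267 and 289 CPM in Folr2 low cells.

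**Figure D3:**
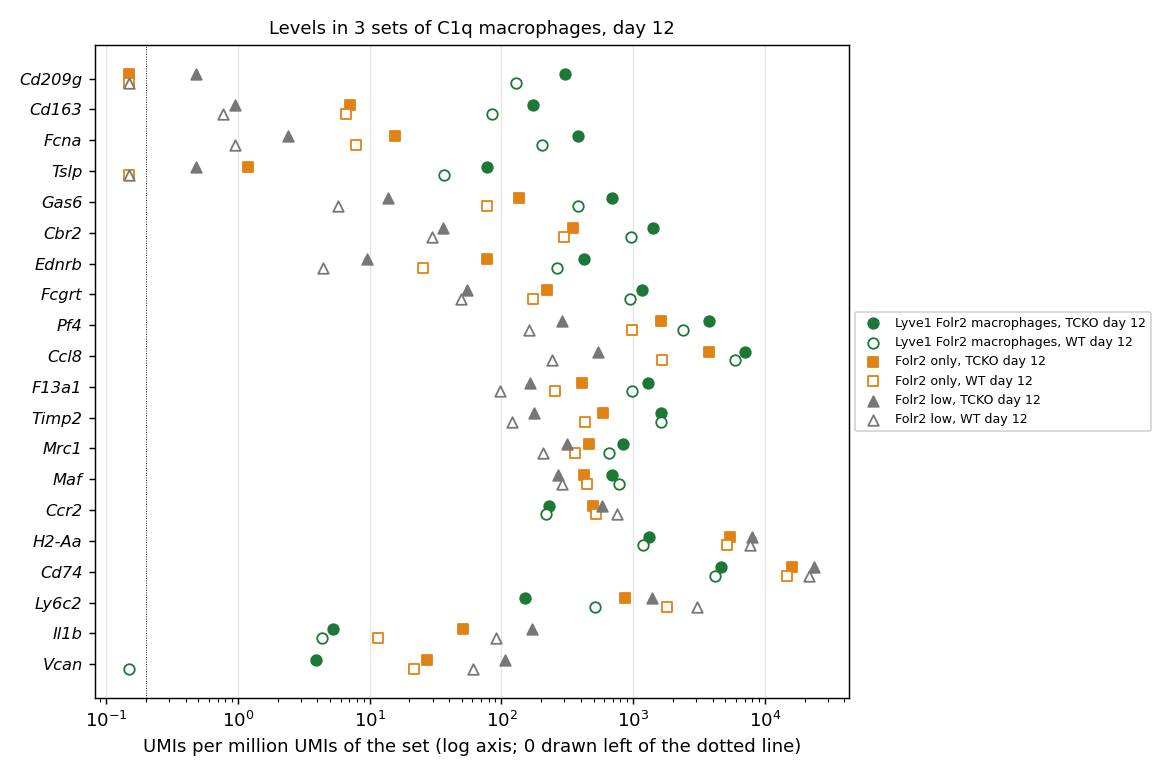
Levels of named genes (vertical axis) in CPM, per the UMIs of the set (horizontal log axis, 0 drawn left of the dotted line) in Lyve1 Folr2 macrophages, Folr2 only and Folr2 low macrophages of the TCKO and WT libraries at day 12. Cd163 lies at 175 CPM in TCKO and 84.4 CPM in WT members and at 7.12 CPM or less in both other sets, while H2-Aa and Cd74 lie lower in the members.

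Members with and without Cd209f differed in more than that gene. The split uses a gene of the rule and the members' own transcripts, and is given with no test. The 21 TCKO and 9 WT members with Cd209f UMIs had medians of 14591 and 12702 UMIs. The 26 TCKO and 30 WT members without them had medians of 16937 and 12062.5 UMIs. Cd209g had 746 CPM in the TCKO members with Cd209f, against 2.21 CPM in those without, and 518 CPM in the WT members with Cd209f, against 2.87 CPM in those without. Cd209d, the other neighbour, had 292 CPM against 0 UMIs in TCKO and 193 CPM against 2.87 CPM in WT. Of the members with a Cd209g UMI, 14 of 15 in TCKO and 6 of 7 in WT also had Cd209f, and of those with Cd209d, 12 of 12 and 3 of 4 did.

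Some genes outside the Cd209 cluster followed. Cd163, on chromosome 6, had 338 CPM with Cd209f and 64.0 CPM without in TCKO, and 219.6 CPM with and 40.2 CPM without in WT. Fcna had 629.6 CPM with and 209.5 CPM without in TCKO, and 404 CPM with and 138 CPM without in WT. All 3 TCKO and 10 WT Timd4 UMIs were in members with Cd209f. Ccl24, an eosinophil-attracting chemokine, had 484 CPM with and 262 CPM without in TCKO, and 659 CPM with and 161 CPM without in WT. These genes were higher with Cd209f in both libraries.

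Other genes did not follow the split, did so in 1 library or differed less. Gas6 had 844 CPM with and 587 CPM without in TCKO, and 342 CPM with and 393 CPM without in WT. Mrc1 had 931 CPM with and 776 CPM without in TCKO, and 694 CPM with and 640 CPM without in WT. Folr2, also a gene of the rule, had 1856 CPM with and 1588 CPM without in TCKO, and 1256 CPM with and 1358 CPM without in WT. Cbr2 was lower with Cd209f, at 1253 CPM against 1509 CPM in TCKO and 782 CPM against 1028 CPM in WT. Retnla, a secreted protein induced by interleukin-4 and interleukin-13, had 13371 CPM with Cd209f and 2627 CPM without in TCKO, and 4312 CPM with and 3316 CPM without in WT. H2-Aa pointed opposite ways, with 1895 CPM with and 937 CPM without in TCKO, and 219.6 CPM with and 1505 CPM without in WT.

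**Figure D4:**
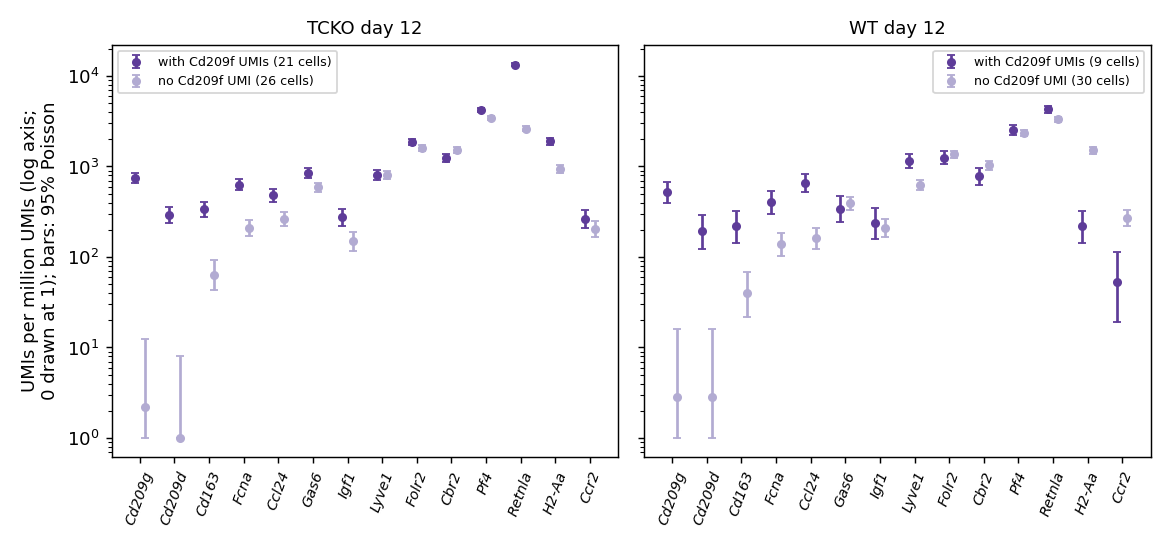
CPM (vertical log axis, 0 drawn at 1, bars 95% exact Poisson intervals) of named genes in members with and without Cd209f UMIs, TCKO day 12 left of WT day 12. Cd209g, Cd209d, Cd163 and Fcna are higher in members with Cd209f in both libraries, and Lyve1, which the rule requires of every member without Cd209f, is shown as a description.

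Between genotypes, the members of the TCKO library at day 12 had lower levels of interferon-gamma response genes and higher levels of several resident macrophage genes than those of the WT library. Of 5443 genes outside the rule with at least 20 UMIs over both, 588 (10.8%) were at least 1.5-fold higher in TCKO members and 602 (11.1%) at least 1.5-fold lower, with a median log2 ratio of -0.02. These are the values of 1 pool against 1 pool. Summed UMIs were 761494 in 47 TCKO members and 462131 in 39 WT members.

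Of 27 interferon-gamma response genes, 15 were lower in TCKO members and none higher, with a median log2 ratio of -0.62. Members, Folr2 only and Folr2 low cells were all taken under the limits on Cxcl9, Cxcl10 and Arg1. These limits let through 312 of 452 TCKO and 784 of 1034 WT C1q macrophages. The list was not compared in the cells left out, so its ratios hold for cells under the limits. Gbp2, a guanylate-binding protein of cell-autonomous defence, had 169 CPM in TCKO and 322 CPM in WT members, a ratio of 0.525 (0.412 to 0.670). Socs1, a feedback inhibitor of cytokine signalling, had 7.88 CPM (6 UMIs) in TCKO and 41.1 CPM (19 UMIs) in WT members (0.192, interval 0.0626 to 0.499). Each of these ratios lay below 1 with its counting interval. Cd274, the ligand PD-L1, had 15.8 CPM in TCKO and 49.8 CPM in WT members, a ratio of 0.317 (0.144 to 0.663), and Irf8 had 95.9 CPM in TCKO and 190.4 CPM in WT members, a ratio of 0.503 (0.364 to 0.694). Gbp2b and Gbp4 were among the 10 lowest ratios of all genes named by rule, at 0.0809 (0.0207 to 0.230) and 0.268 (0.148 to 0.470). Gbp genes are near-identical in part, and how reads shared by copies were assigned is not given in the sources used here.

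The same list was lower in TCKO in the other macrophages of these libraries, with 14 lower and none higher in Folr2 only cells (median -0.61) and 22 lower and none higher in Folr2 low cells (median -0.88). Over the same 5443 genes, 7.29% were lower and 6.78% higher in TCKO among Folr2 only cells, and 6.01% lower and 4.41% higher among Folr2 low cells. The difference between the sets was not tested. Gbp2b was at 5.25 CPM in TCKO and 64.9 CPM in WT members, 1.19 and 114 CPM in Folr2 only cells, and 2.38 and 149 CPM in Folr2 low cells. Iigp1, an immunity-related GTPase, had 164 CPM in TCKO and 258 CPM in WT members, against 35.6 and 150.1 CPM in Folr2 only and 15.2 and 167 CPM in Folr2 low cells. The type I interferon list had 1 of 25 genes lower in TCKO members, Ifit1 (0.618, interval 0.472 to 0.808), and none higher, with a median of -0.10. Of the 20 MHC class I genes 1 was higher and 2 were lower (median -0.13), and of 7 class II genes none passed 1.5-fold (median 0.06).

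Of the 22 resident macrophage genes, 11 were higher in TCKO members and 1 was lower, with a median of 0.59. Cd163 had a TCKO over WT ratio of 2.07 (1.44 to 3.04), Cd209g 2.34 (1.75 to 3.16), Fcna 1.87 (1.47 to 2.38), Gas6 1.81 (1.53 to 2.16) and Pf4 1.57 (1.46 to 1.68). The lower one was Cd5l, a secreted scavenger protein, with 7 UMIs (9.19 CPM) in TCKO and 14 UMIs (30.3 CPM) in WT members. Cd163, Cd209g and Fcna were higher with Cd209f, which 21 of 47 TCKO but 9 of 39 WT members had. In members without Cd209f, Cd209g had 2.21 CPM in TCKO and 2.87 CPM in WT. Cd163 had 64.0 and 40.2 CPM there, and Fcna 209.5 and 138 CPM. With Cd209f, Cd209g had 746 and 518 CPM, Cd163 338 and 219.6 CPM, and Fcna 629.6 and 404 CPM. The part of this mix of members in the ratios was not tested. Resident genes were higher in TCKO in the other sets as well, with 12 higher and none lower in Folr2 only cells (0.64) and 14 higher and 3 lower in Folr2 low cells (0.63), beside the 6.78% and 4.41% of all genes that were higher there. The rule genes had ratios of 1.27 for Folr2, 1.07 for Lyve1 and 1.79 for Cd209f, given as a description.

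Alternative activation genes pointed the same way, with 6 of 13 higher in TCKO members and none lower (median 0.39), and 8 higher in each of the Folr2 only and Folr2 low sets (medians 0.82 and 0.83), with 1 lower in Folr2 only cells. The lists share genes, so their counts are not separate. Cd163 and Clec10a are also resident genes, and Gas6, Stab1, Cd163 and Cd36 also count as scavenging genes. Retnla had 6974 CPM in TCKO and 3562 CPM in WT members, a ratio of 1.96 (1.85 to 2.07). Its UMIs were unevenly spread over the members, with quartiles of 1.26 and 119.9 per 10000 UMIs of the cell in TCKO and 0 and 30.0 in WT. Mgl2, a lectin induced by interleukin-4, had 232 CPM in TCKO and 115 CPM in WT members, a ratio of 2.03 (1.48 to 2.81). Apoe, the lipid carrier apolipoprotein E, had 8028 CPM in TCKO and 3876 CPM in WT members, a ratio of 2.07 (1.96 to 2.18), and ratios of 2.30 in Folr2 only and 2.04 in Folr2 low cells. In the lipid list 5 of 23 genes were higher in TCKO members and 2 lower. Complement genes were higher in 3 of 8 cases and lower in none (median 0.45), growth and matrix genes higher in 3 of 10 and lower in none (0.30), and scavenging genes higher in 4 of 13 and lower in 1 (0.32). Transcription factors were lower in 3 of 15 cases and higher in none. Of 8 inflammatory genes 3 were lower and 1 was higher, a count that rested on single cells: without the 5 cells described with the cell cycle genes, 1 was lower and 3 were higher.

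The monocyte gene Ly6c2 and the matrix gene Fn1 differed in opposite directions. Ly6c2 was lower in TCKO members, at a ratio of 0.294 (0.233 to 0.370), and Fn1 was higher, at 6.22 (2.25 to 23.9). Immediate early and stress genes were higher in 7 of 18 cases and lower in none (median 0.55), against 3 higher in Folr2 only and 4 in Folr2 low cells. Hspa1a, a heat shock protein whose copy Hspa1b is near-identical, had 183 CPM in TCKO and 19.5 CPM in WT members, a ratio of 9.37 (4.80 to 20.9). It was also higher in TCKO T cells (53.5 CPM, against 8.35 CPM in WT T cells). The part of tissue handling in these genes was not tested. Socs3, the feedback inhibitor of interleukin-6 signalling, had 67.0 CPM in TCKO and 23.8 CPM in WT members, a ratio of 2.81 (1.45 to 5.99). Cxcl2, a neutrophil-attracting chemokine, had 48 UMIs in 11 TCKO members and 2 UMIs in 1 WT member, a ratio of 14.6 (3.82 to 124). Without the 5 cells described with the cell cycle genes, 27 Cxcl2 UMIs were left in TCKO and 2 in WT members. Cxcl2 was also higher in TCKO T cells (35.6 CPM, against 2.90 CPM in WT T cells). Its ratios were 1.04 in Folr2 only and 1.45 in Folr2 low cells.

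Single cells set some of the largest differences. Of 22 cell cycle genes, 17 were higher in TCKO members and 1 was lower (median 1.25). At least 10 UMIs of the division genes Top2a and Mki67 were found in 4 of 47 TCKO members (8.51%, interval 2.37 to 20.4%). They were found in 0 of 39 WT members (interval 0 to 9.03%), an upper end above the TCKO share. The other sets held such cells too, at 2.04% (0.559 to 5.14%) of TCKO and 0.506% (0.104 to 1.47%) of WT Folr2 low cells. In Folr2 only cells the shares were 1.49% (0.0378 to 8.04%) in TCKO and 1.34% (0.163 to 4.76%) in WT. Outside that limit, the UMIs summed over the cell cycle list reached 78.6 and 77.6 per 10000 UMIs of the cell in other TCKO members and 93.5 in 1 WT member. It was 121 to 148 in the 4 cells, with medians of 18.2 in TCKO and 13.95 in WT. These 4 cells had 28074, 14300, 34045 and 10450 UMIs, with 34, 11, 51 and 1 Lyve1 UMIs and no Cd209f UMI. In the WT library 1 member of 12877 UMIs held most UMIs of the chemokine genes Xcl1, Ccl4 and Ccl3. It held 270 of 275 Xcl1, 517 of 542 Ccl4 and 169 of 187 Ccl3 UMIs. It had 17 Lyve1 and 18 Cd209f UMIs. Of lymphocyte genes it had 7 UMIs of Nkg7, 3 of Gzmb, 1 of Gzma and 1 of Cd3g. It had 0 of Ncr1, Klrb1c, Klre1, Prf1, Cd3d and Cd3e.

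Without these 5 cells, in 43 TCKO and 38 WT members, 1 of 12 cell cycle genes was higher and 2 were lower, with a median of -0.02. The 4 TCKO cells were picked by Top2a and Mki67 of this list, so a fall of the list was set in advance. The log2 ratios of Ccl4 and Ccl3 without the 5 cells were 1.14 and 0.97, against -3.39 and -2.50 with all members. Inflammatory genes turned over with them, with 3 of 8 higher and 1 lower (median 0.44, against -0.14 with all members). Chemokine genes were then higher in 4 of 13 cases and lower in 2 (median 0.22), against 2 higher and 3 lower with all members (0.04). The median of the transcription factors moved to 0.0049, against -0.011. Of the interferon-gamma genes 14 of 27 were still lower and none higher (median -0.59), of the resident genes 11 of 22 were higher and 1 lower (0.62), and of the immediate early genes 6 of 18 were higher and none lower (0.44).

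Some genotype differences were of like size in every cell set. Gm10709 had 766 CPM in TCKO and 15.1 CPM in WT members, a ratio of 50.5 (24.4 to 126), with ratios of 77.3 in Folr2 only cells, 112 in Folr2 low cells and 83.6 in T cells. Rpl29, a ribosomal protein gene, had 131 CPM in TCKO and 1279 CPM in WT members, a ratio of 0.103 (0.0822 to 0.127), with 0.0986, 0.119 and 0.0975 in the same other sets. Of the 431 stretches of 50 bases in the Gm10709 transcript 273 (63.3%) also lie in Rpl29 transcripts, so the counts of this pair are uncertain. Wdfy1 had 7.88 CPM in TCKO and 54.1 CPM in WT members (0.146, interval 0.0489 to 0.364), with ratios of 0.210, 0.276 and 0.190.

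The remaining genes among the 10 highest and 10 lowest ratios were Hist1h2ap (19.0), Top2a (12.7), Mki67 (9.71), Ccna2 (6.88), Ube2c (6.43) and 2810417H13Rik (5.98), all genes known from dividing cells, and Saa3, Il10ra and Xcl1 on the lower side. Saa3, a serum amyloid protein, had 23 UMIs in 6 TCKO members and 82 UMIs in 8 WT members, a ratio of 0.170 (0.102 to 0.273). Il10ra, the interleukin-10 receptor, had 22.3 CPM in TCKO and 71.4 CPM in WT members, a ratio of 0.313 (0.163 to 0.578).

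**Figure D5:**
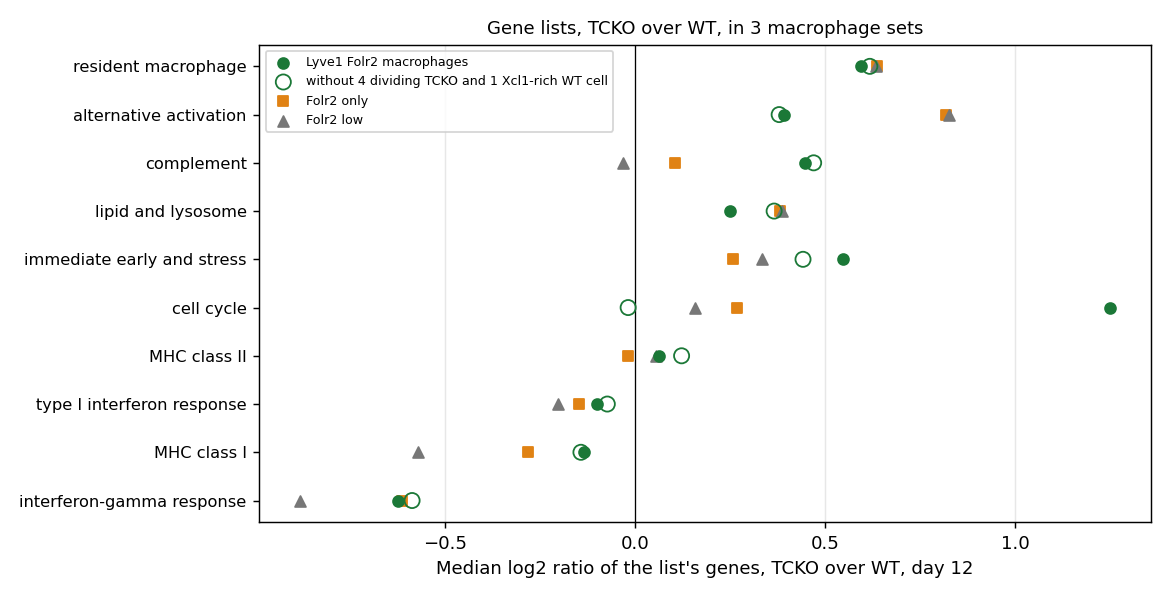
Median log2 ratio of each gene list, TCKO over WT at day 12 (horizontal axis), in Lyve1 Folr2 macrophages, in the members without 4 dividing TCKO cells and 1 WT cell with high Xcl1, in Folr2 only and in Folr2 low macrophages. The interferon-gamma list lies at -0.62, -0.59, -0.61 and -0.88, and the cell cycle list at 1.25 in all members and at -0.02 without the 5 cells.

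Summed over all C1q macrophages, members or not, Lyve1 reached 115 CPM in the TCKO library of day 12 and 40.7 CPM in its WT library, then 3.13 CPM in TCKO and 0 in WT macrophages of day 9. Cd163 reached 26.5 CPM (TCKO) and 5.56 CPM (WT) on day 12, with 0 (TCKO) and 0.926 CPM (WT) on day 9. The Lyve1 values follow from the rule, and all 17 Lyve1 UMIs of the TCKO macrophages of day 9 came from the 1 cell that the Arg1 limit left out. Ccl8 was counted on day 9 too, at 267 CPM in TCKO and 98.2 CPM in WT, below its 2266 CPM (TCKO) and 827 CPM (WT) of day 12. Retnla had 2947 CPM in TCKO and 1320.3 CPM in WT macrophages of day 12, with 2.58 CPM in TCKO and 677.9 CPM in WT macrophages of day 9, so its order between genotypes was not the same on both days.

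Markers of other cells were scarce in the members, where the rule itself limited Xcr1, Clec9a, Ccr7 and the CD3 genes. Of 8 listed T cell markers 5 were counted, as no symbol matched the others. Summed over each list, markers of melanoma cells had 24.95 CPM in TCKO and 15.1 CPM in WT members, those of T cells 6.57 and 8.66 CPM, those of NK cells 17.1 and 32.5 CPM and those of B cells 5.25 and 10.8 CPM. Endothelial markers, blood and lymphatic, had 10.5 CPM in TCKO and 12.98 CPM in WT members, with 6 and 7 of 8 genes at 0. Dendritic cell lists lay between 11.8 and 53.8 CPM in TCKO and between 10.8 and 36.8 CPM in WT. Neutrophil markers had 35.5 CPM in TCKO and 30.3 CPM in WT members, fibroblast markers 13.1 and 6.49 CPM, and haemoglobin genes 28.9 and 4.33 CPM. In Folr2 low cells, fibroblast markers had 1.91 CPM in TCKO and 0.765 CPM in WT, below the members. The cDC1 dendritic cell list had 23.8 and 27.7 CPM there, below the members' 53.8 and 36.8 CPM. NK cell markers had 29.5 and 112 CPM there, above the members.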

How the data were processed

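The deposited values are UMI counts per gene and cell barcode, which the authors made with Cell Ranger 2.0.2 on mm10, per the submitters' processing notes, for 27998 gene IDs paired with symbols. Barcodes with at least 200 genes and at most 10% mitochondrial UMIs were kept, and members were chosen by the UMI limits given in the text. Those limits rest on the members' own transcripts, and the members and gene lists were chosen with earlier results of these data known. Doublets were not removed in the main values; an alternative removed the highest Scrublet scores (scanpy 1.11.5) at 0.8% per 1000 barcodes.

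UMIs were summed per cell set and library and scaled to 1000000 UMIs (CPM). Intervals are 95% Clopper-Pearson for shares, exact Poisson for counts and exact conditional for ratios (scipy 1.17.1). They cover counting error only, with no spread between mice or pools. Log2 ratios used 0.5 added UMIs and genes with at least 20 UMIs over the pair, and a gene counted as higher or lower at 1.5-fold. The script for counts of genes was tested on simulated data.

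Named genes were the genes of the rule, the listed genes with at least 20 UMIs in members, the 20 highest and 10 lowest genes against Folr2 low cells with at least 50 UMIs, and the 10 highest and 10 lowest genes between genotypes with at least 30 UMIs. The genotype rule asked for both days, and since day 9 had no members it was applied to day 12. The planned edgeR test across libraries needed 20 members in each and was not run, nor was a comparison of genes between days. Gene positions come from GENCODE vM21 (GRCm38), promoter and miRNA sequences from RefSeq (GRCm38.p6). Of the 411 listed genes 8 were not analysed here, as no symbol matched. Python 3.11.15, numpy 2.4.6, pandas 2.3.3 and matplotlib 3.10.9 were used.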

Additional observations from a re-analysis of the deposited data

Results flagged for a closer look

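The cell division genes Top2a, Mki67, Hist1h2ap and 2810417H13Rik pointed opposite ways in the TCKO and WT libraries at day 12 when Lyve1 Folr2 macrophages were set against Folr2 low macrophages. The log2 ratio of members over Folr2 low cells was 2.02 in TCKO and -0.78 in WT for Top2a, and 1.60 in TCKO and -1.12 in WT for Mki67. It was 1.89 in TCKO and -1.09 in WT for Hist1h2ap, and 1.23 in TCKO and -1.19 in WT for 2810417H13Rik. The TCKO values rested on 4 of 47 members, which held 77 of 84 Top2a UMIs, 31 of 32 Mki67 UMIs, 116 of 125 Hist1h2ap UMIs and 59 of 69 UMIs of 2810417H13Rik. Without these cells the TCKO log2 ratios were -1.30 for Top2a, -2.66 for Mki67, -1.66 for Hist1h2ap and -1.32 for 2810417H13Rik. The cells were picked by their Top2a and Mki67 UMIs, so a fall of these ratios was set in advance. The Folr2 low cells kept their own dividing cells, 4 of 196 in TCKO and 3 of 593 in WT. The signs without the 4 members are therefore not compared with WT. The difference between the libraries was not tested, as each genotype had 1 library.

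In the day 9 data, where no cell met the rule, 1 TCKO cell had 17 Lyve1 UMIs and missed the rule only by its 29 Arg1 UMIs. It had 36774 UMIs in all, with 43 of Folr2, 625 of Ccl8, 13 of Top2a and 0 of Cd209f.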

How the results depend on the processing

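The TCKO over WT ratio of the share of Lyve1 Folr2 macrophages at day 12 lay between 2.04 and 2.55 of kept cells and between 2.58 and 3.17 of C1q macrophages when Folr2 needed 3 UMIs, Lyve1 and Cd209f 2 UMIs, mitochondrial UMIs stayed under 5%, doublet scores were removed, cells were thinned to 5000 UMIs or the 3 TCKO members with shared barcodes were left out. Day 9 stayed at 0 in each. Removing doublet scores took 33, 108, 112 and 25 cells of TCKO day 12, WT day 12, TCKO day 9 and WT day 9, and none of the members. The counts of genes at least 1.5-fold different between genotypes lay between 461 and 617 for higher and between 538 and 626 for lower.

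Leaving out the 4 dividing TCKO cells and the WT cell with high Xcl1, which was chosen after the data were seen, left 1 cell cycle gene higher in TCKO in place of 17, moved 15 of 259 named genes and turned 10. The log2 ratios that changed sign were then -0.10 for 2810417H13Rik, 0.97 for Ccl3, 1.14 for Ccl4, -1.03 for Cdca8, -1.07 for Cdk1, -0.46 for Hmgb2, -1.32 for Mki67, -0.093 for Pcna, -1.43 for Tpx2 and -1.24 for Tyms. Spp1 changed sign to -0.79 with Folr2 at 3 UMIs and to -1.17 with Lyve1 and Cd209f at 2 UMIs, and the cause was not tested. With Lyve1 and Cd209f at 2 UMIs, 26 of the 259 moved.

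No paired analysis was possible because each genotype and day had 1 library. The edgeR fit, its RLE scaling, DESeq2, the missing filter on low counts and the comparison of genes between days were not run, as both day 9 libraries had 0 members. Depth limits genes under 20 UMIs, and the 100 C1q macrophages of WT day 9 set the limit that a count of 0 allows there.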
